A study of Mus musculus with 10 samples.

Results

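The 6 immunopurified libraries from cocaine self-administering and yoked mice, pooled with equal weight for each group, were compared with the 3 immunopurified libraries from saline self-administering mice. These are 9 of the 10 libraries of the series, the remaining one being unpurified cortex RNA from the saline group. The libraries were taken by their labels, every one labelled immunopurified (IP), 3 per treatment, with all 32531 genes of the deposited tables. All mice were of the S100a10-TRAP line ES691, the tissue was cerebral cortex and the fraction was ribosome-bound RNA, so the saline group carried the same transgene as the others. The groups differed in treatment, saline self-administration, cocaine self-administration or yoked control. What the yoked mice received, the dose, the duration, the time of dissection, the age of the mice and the number of animals per library are not stated in the labels.

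TRAP (translating ribosome affinity purification) expresses an EGFP-tagged ribosomal protein in chosen cells and captures their polysomes with an antibody to EGFP. In this line S100a10 regulatory sequence drives the tag. S100a10 (p11) is known from deep-layer cortical projection neurons and is also made by other cells. A yoked animal in a self-administration design is generally tied to the schedule of a partner and has no control over delivery. Neuronal activity and stimulant drugs are both known to induce immediate early genes, which are transcribed without new protein synthesis and many of which encode transcription factors (Egr, Fos and Nr4a proteins among them).

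The 9 libraries held between 38653752 and 50898401 counts assigned to genes. Each treatment was sequenced on a lane of its own, lane 4 for saline, 5 for cocaine and 6 for yoked, so treatment and lane cannot be told apart. Nothing in the labels says that replicates were separate animals, so p-values measure the spread between these libraries, which may be technical. The labelled cell type is neurons, and transcripts of other cells were present in every IP library: the 20 meningeal fibroblast markers summed to between 21700 and 42632 CPM (gene counts scaled to library size) and the 16 excitatory neuron markers to between 4654 and 6573 CPM. Most of the meningeal sum was 1 gene, Ptgds, at 19240 to 38679 CPM, and levels of different genes are not comparable. Neither list had a marker at 0 throughout. In bulk RNA, fewer cells of a type and less RNA per cell cannot be told apart.

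No gene passed the test between the pooled libraries and saline. Of 16642 genes tested with edgeR's quasi-likelihood test, with replicate number as a block, 0 were called in either direction (0%) and the smallest Benjamini-Hochberg adjusted p was 0.652. At an unadjusted p under 0.05 stood 1081 genes (6.50%), of which 352 were higher (2.12%) and 729 lower (4.38%) in the pool. DESeq2 on the same design called 3 genes, Egr2, Rplp1 and Oxt, and had 1135 genes at an unadjusted p under 0.05. Without the filter on low counts edgeR called 36 of 22813 genes, 5 higher, Egr2 and Egr1 among them, and 31 lower. Rn45s, the ribosomal RNA precursor, was lower and had the smallest adjusted p in that setting (6.2e-05). Others lower were Rplp1, Lars2, Psmb8, Nnat and the cholinergic genes Slc18a3, Slc5a7, Slc10a4 and Ngfr. The estimates lay on both sides of 0, 47.8% of genes above and 52.2% below, with a median of -0.01 on the log2 scale. All 6 pooled libraries lay above all 3 saline libraries for 162 genes (0.973%) and below them for 195 (1.17%). The genes described in the next paragraphs did not pass the filtered edgeR test.

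Among the genes of smallest p on the higher side, the leading 3 were Egr2, Egr1 and Egr3, zinc-finger transcription factors of the early growth response family. Egr2 (chr10:67535475-67542188, plus strand, GRCm38) stood at 9.65, 11.8 and 15.9 CPM in saline replicates 1, 2 and 3, at 17.0, 14.2 and 31.9 CPM in cocaine and at 22.5, 19.4 and 25.6 CPM in yoked. Saline was the lowest library within each of the 3 replicate numbers, and cocaine replicate 2 lay below the highest saline library, so the groups overlapped. The pooled log2 difference was 0.79 ± 0.16 (SE; 95% interval 0.45 to 1.13), a 1.73-fold higher level, with an edgeR p of 1.71e-04 and an adjusted p of 0.652. DESeq2 gave 0.80 with an adjusted p of 0.0123.

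Egr1 stood at 702, 724 and 926 CPM in saline, at 1159, 982 and 1144 CPM in cocaine and at 949, 888 and 1310.0 CPM in yoked. Yoked replicate 2 was the one pooled library below the highest saline library, and within each number saline was lowest. Its pooled log2 difference was 0.45 ± 0.11 (SE), with an edgeR adjusted p of 0.740. Egr3, on chr14:70077203-70082614, gave 173, 151 and 195 CPM in saline, 218, 212 and 311 CPM in cocaine and 193, 194 and 307 CPM in yoked, a log2 difference of 0.44 ± 0.11 (SE). Yoked replicates 1 and 2 lay just under saline replicate 3, and within each number saline was again lowest. Egr4, the fourth member of the family, differed by 0.44 ± 0.15 (SE), or 0.26 without saline replicate 1, and saline was lowest in 2 of the 3 numbers.

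**Figure D1:**
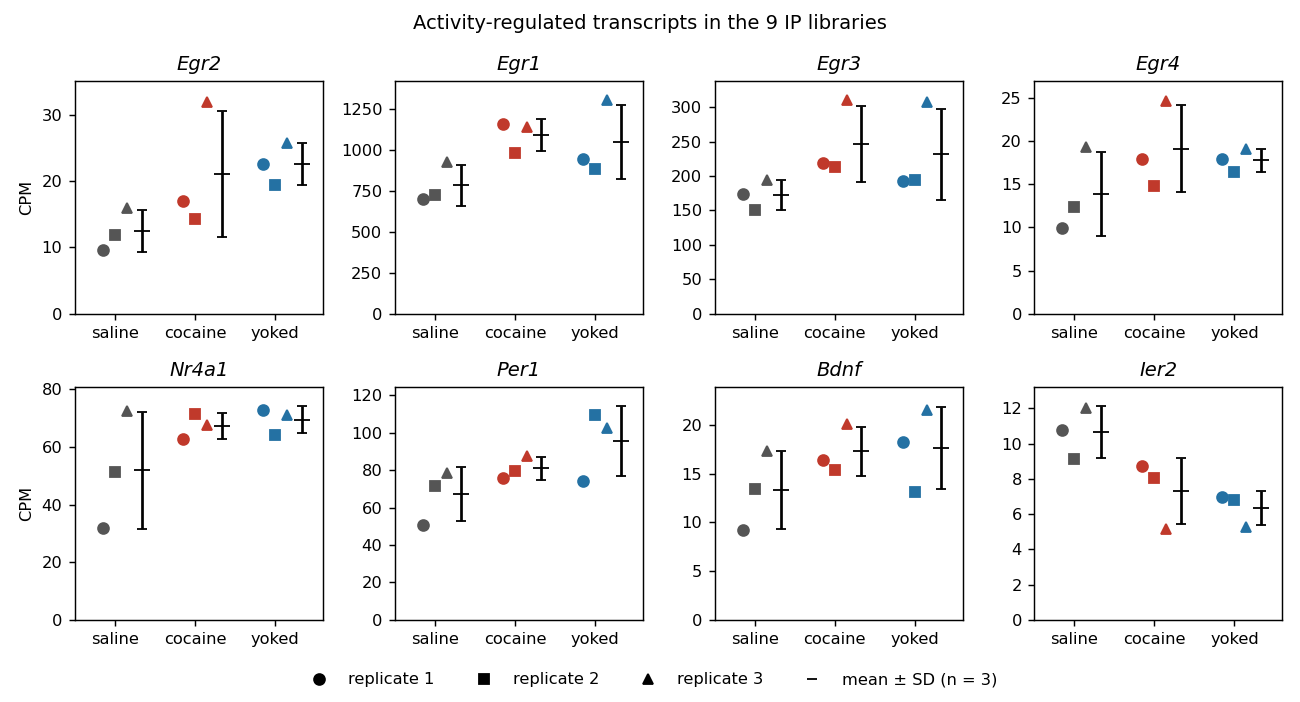
Level in CPM (linear axis from 0) of 8 activity-regulated transcripts in each of the 9 IP libraries, with symbols for replicate number and the mean ± SD (n = 3) beside each group. Saline replicate 3 is the highest saline library in each of the 8 panels; for Egr2, Egr1, Egr3 and Per1 saline is the lowest group within every number, and Ier2 runs the other way.

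The list of 41 immediate early genes gave 23 higher and 18 lower estimates, with a median log2 difference of 0.10, or 0.036 without saline replicate 1 and 0.039 without yoked replicate 1. At an unadjusted edgeR p under 0.05 were 10 higher members (2.12% of all genes) and 2 lower members (4.38% of all genes), and 0 were called. The 10 were Egr2, Egr1, Egr3, Egr4, Per1, Fosl2, Nr4a1, Fosb, Trib1 and Klf10. All 6 pooled libraries lay above saline for Fosb and Klf10, which is 2 of 41 members against 0.973% of all genes. Fosb, an AP-1 subunit, stood at 9.06, 10.3 and 10.1 CPM in saline, at 11.1, 12.1 and 13.9 CPM in cocaine and at 11.3, 10.7 and 17.8 CPM in yoked, a log2 difference of 0.36 ± 0.16 (SE). Klf10, a Krüppel-like repressor, spanned 45.9 to 53.5 CPM in saline and 55.0 to 64.7 CPM in the pool.

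Nr4a1, an orphan nuclear receptor, was at 31.9, 51.3 and 72.3 CPM in saline, at 62.8, 71.6 and 67.6 CPM in cocaine and at 73.0, 64.2 and 71.1 CPM in yoked. The pool was narrow and the saline group wide, with saline replicate 3 inside the range of the pool. Trib1, a pseudokinase, had a similar shape, at 29.6, 31.6 and 52.0 CPM in saline and 43.7 to 51.0 CPM in the pool. Arc, a synaptic capsid-like protein, gave 51.0, 65.6 and 108 CPM in saline and 79.7 to 104 CPM in the pool, a log2 difference of 0.32 ± 0.18 (SE, edgeR p 0.1001). In each of these 3 genes the saline library numbered 3 exceeded at least 5 of the 6 pooled libraries. Without saline replicate 1 the log2 difference of Nr4a1 was 0.17 and that of Arc 0.03, and without saline replicate 3 they were 0.74 and 0.73.

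Several members often used as activity reporters did not reach an unadjusted p under 0.05. Fos, the prototype of the class, was at 14.7, 19.5 and 21.7 CPM in saline and at 19.8 to 28.2 CPM in the pool, a log2 difference of 0.26 ± 0.16 (SE, edgeR p 0.128). It was -0.00 without saline replicate 1 and -0.01 without all libraries numbered 1. Junb differed by -0.09 ± 0.20 (SE), Npas4, an activity-specific transcription factor, by -0.15 ± 0.21 (SE) and the phosphatase Dusp1 by -0.14 ± 0.22 (SE), and all 3 of these estimates changed sign without saline replicate 3. On the lower side, Ier2, a short nuclear protein gene, stood at 10.8, 9.14 and 12.04 CPM in saline, at 8.75, 8.03 and 5.18 CPM in cocaine and at 6.96, 6.81 and 5.24 CPM in yoked, with no overlap and a log2 difference of -0.67 ± 0.18 (SE).

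The sequences upstream of a few of these genes are printed as examples that hold a motif match. Each is 150 bases before to 30 after a RefSeq start (GRCm38.p6), read 5′ to 3′ on the gene's strand, with the motif in capitals. In Egr2 (the third of 5 listed starts, chr10:67537719-67537898, plus strand) the capitals mark a CArG box, the element bound by serum response factor. In Nr4a1 (chr15:101266696-101266875, plus strand) and Fosb (chr7:19310016-19310195, minus strand) they mark GCGNGGGCG, the site of Egr proteins, on either strand. Per1 and Bdnf, which also stood higher, were searched as well and held neither of these motifs at a listed start.
Egr2: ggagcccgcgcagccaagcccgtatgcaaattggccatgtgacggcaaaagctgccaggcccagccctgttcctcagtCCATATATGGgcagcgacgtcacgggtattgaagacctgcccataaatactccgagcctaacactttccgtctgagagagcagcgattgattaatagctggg
Nr4a1: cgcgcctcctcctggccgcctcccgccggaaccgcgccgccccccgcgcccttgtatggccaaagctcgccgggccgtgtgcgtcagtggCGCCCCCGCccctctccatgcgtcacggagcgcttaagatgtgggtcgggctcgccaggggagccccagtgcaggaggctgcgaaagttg
Fosb: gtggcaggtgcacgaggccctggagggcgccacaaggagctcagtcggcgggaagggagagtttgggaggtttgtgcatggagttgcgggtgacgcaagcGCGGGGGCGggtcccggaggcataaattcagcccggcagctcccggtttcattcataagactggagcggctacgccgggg

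Searched on both strands in the first listed 300-base window of each gene (250 before to 50 after the start), GCGNGGGCG was in 8 of 31 immediate early genes with a window and in 1221 of 11790 tested genes with one (10.36%). The CArG box was in 1 of the 31 and in 1.31% of all windows; the first listed window of Egr2 did not hold it, and the one printed, from another start, did not enter this count. The E-box CACGTG was in 7 of the 31 and in 9.79% of all windows. The cyclic AMP response element TGACGTCA was in 4 of the 31 and in 3.10% of all windows, and the AP-1 site TGANTCA in 0 of the 31 and 5.11% of all windows. No pair of these motifs was required to be apart, so matches may overlap. A match is a string of letters in the window and shows no binding here.

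Activity-dependent genes of the later wave lay on both sides of 0. Of 22 such effectors 9 were higher and 13 lower, with a median of -0.03, and 1 in each direction reached an unadjusted edgeR p under 0.05, against 2.12% of all genes higher and 4.38% lower, a share near the background. Bdnf, the neurotrophin, was at 9.21, 13.5 and 17.3 CPM in saline, at 16.4, 15.3 and 20.1 CPM in cocaine and at 18.3, 13.1 and 21.5 CPM in yoked, a log2 difference of 0.40 ± 0.16 (SE) that was 0.18 without saline replicate 1. Npy, the neuropeptide of a class of interneurons, was at 112, 167 and 170.2 CPM in saline and 86.3 to 147 CPM in the pool, a log2 difference of -0.40 ± 0.17 (SE) that was -0.10 with the length trend removed.

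Clock genes formed a second group with more higher than lower estimates, 14 of 19, and a median of 0.09. The 4 of 19 at an unadjusted edgeR p under 0.05 were all higher (2.12% of all genes): Per1, Per2, Cry1 and Bhlhe40, which encode repressors of the clock loop. Per1, also counted among the immediate early genes, stood at 50.9, 71.6 and 78.7 CPM in saline, at 75.6, 79.4 and 87.7 CPM in cocaine and at 74.2, 109.5 and 102 CPM in yoked, a log2 difference of 0.40 ± 0.12 (SE). Per2 was at 25.3, 22.6 and 27.3 CPM in saline, at 33.6, 30.6 and 30.9 CPM in cocaine and at 28.2, 29.1 and 42.8 CPM in yoked, so that all 6 pooled libraries lay above saline. Its log2 difference was 0.37 ± 0.13 (SE). Cry1 differed by 0.31 ± 0.12 (SE) and Bhlhe40 by 0.31 ± 0.11 (SE). The labels do not state the time of day of dissection.

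The remaining genes of smallest p on the higher side were not from one family. Shc4, an adaptor of receptor tyrosine kinases (chr2:125627447-125724148), was at 5.11, 4.89 and 4.54 CPM in saline, at 7.26, 7.05 and 7.54 CPM in cocaine and at 9.10, 6.94 and 7.96 CPM in yoked, a log2 difference of 0.65 ± 0.17 (SE) with no overlap. Lrguk, known from sperm development, spanned 3.06 to 4.40 CPM in saline and 4.40 to 10.7 CPM in the pool, a log2 difference of 0.87 ± 0.22 (SE). The transcript AB346318, which matched no gene of the annotation used, spanned 17.2 to 20.5 CPM in saline and 22.7 to 28.3 CPM in the pool. For all 3 the adjusted p was 0.740.

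On the lower side the gene of smallest p was Rplp1, an acidic stalk protein of the large ribosomal subunit (chr9:61913284-61914542, minus strand). It stood at 201, 178 and 132 CPM in saline, at 115, 121 and 103 CPM in cocaine and at 109, 105 and 111 CPM in yoked. All 6 pooled libraries lay below all 3 saline libraries. The log2 difference was -0.61 ± 0.12 (SE; 95% interval -0.86 to -0.36), with an edgeR p of 9.75e-05 and an adjusted p of 0.652. With each library's trend on transcript length removed it was -0.27.

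Rplp1 stood with its class. Of 78 cytosolic ribosomal protein genes 74 had lower estimates, 31 of them at an unadjusted edgeR p under 0.05 (4.38% of all genes), and 4 had higher ones, with a median log2 difference of -0.29. Rpl37 was at 91.5, 73.9 and 51.5 CPM in saline, at 46.6, 55.8 and 39.5 CPM in cocaine and at 55.9, 49.99 and 49.3 CPM in yoked, a log2 difference of -0.52 ± 0.13 (SE), or -0.29 with the length trend removed. Saline replicate 3 lay inside the range of the pool, and 1 of 78 members, Rplp1, was separate (1.17% of all genes). By replicate number the median against the same-numbered saline library was -0.39, -0.37 and -0.06. Rps27l, a ribosomal protein paralog known as a p53 target, was at 48.6, 39.1 and 16.7 CPM in saline and 13.8 to 24.99 CPM in the pool, a log2 difference of -0.67 ± 0.15 (SE), or -0.35 with the length trend removed. Ribosomal protein genes have many processed copies, and reads that match several places are not assigned to a gene here, so single members are uncertain.

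Nuclear-encoded subunits of oxidative phosphorylation, the respiratory chain and ATP synthase of mitochondria, gave nearly the same counts. Of 78, 70 were lower and 8 higher, 32 of the lower at an unadjusted edgeR p under 0.05 (4.38% of all genes), with a median of -0.25, or -0.16 without yoked replicate 2. Ndufa7, a subunit of complex I, was at 143, 160.2 and 76.2 CPM in saline, at 82.2, 117 and 62.0 CPM in cocaine and at 104, 88.5 and 65.1 CPM in yoked, a log2 difference of -0.51 ± 0.13 (SE), or -0.22 with the length trend removed. Atp5e, a subunit of ATP synthase, differed by -0.53 ± 0.13 (SE). Saline exceeded both same-numbered libraries in all 3 numbers for each, while saline replicate 3 was among the low libraries overall. Cox8a was the 1 member of 78 with all 6 pooled libraries below saline (1.17% of all genes), a share near the background.

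**Figure D2:**
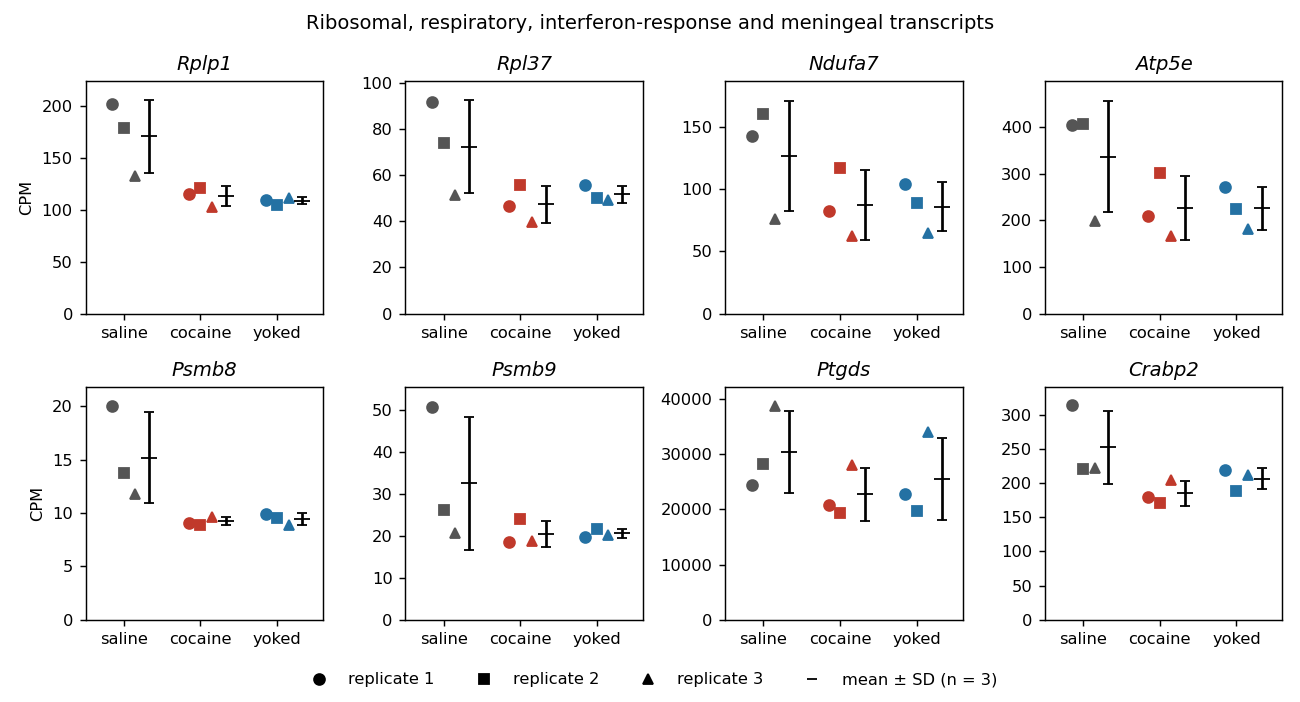
Level in CPM (linear axis from 0) of 2 ribosomal, 2 respiratory, 2 immunoproteasome and 2 meningeal transcripts in each of the 9 IP libraries, with the mean ± SD (n = 3) of each group. Rplp1, Psmb8 and Crabp2 have all 6 pooled libraries below saline; Rpl37, Ndufa7 and Atp5e have saline replicate 3 among the low libraries.

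The difference between the pool and saline moved with transcript length across all genes, and most ribosomal protein genes are short: of 78, the longest annotated transcript has under 500 bases in 5, 500 to 1000 in 29 and 1000 to 2000 in 31. For the 619 genes whose longest annotated transcript has 500 to 1000 bases the median log2 difference was -0.27 and 85.6% were lower. For the 881 genes above 8000 bases the median was 0.13 and 20.7% were lower. Ribosomal protein genes were lower in each length class that held any: the 29 of 500 to 1000 bases had a median of -0.32, the 11 of 2000 to 4000 bases one of -0.28, where all genes of that class were at -0.03, and the 2 of 4000 to 8000 bases one of -0.28, where all genes were at 0.06. Saline replicates 1 and 2 sat at 0.10 and 0.13 in the 500 to 1000 base class, relative to the mean of the 3 saline libraries, and saline replicate 3 sat at -0.23, among the pooled libraries, which ran from -0.33 to -0.05. With each library's length trend removed, the ribosomal median was -0.09 with 58 of 78 lower, and the oxidative phosphorylation median -0.04 with 47 of 78 lower. The immediate early gene median was 0.16 under the same removal, with 11 of 39 members higher at an unadjusted edgeR p under 0.05, against 307 of 15091 genes.

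**Figure D3:**
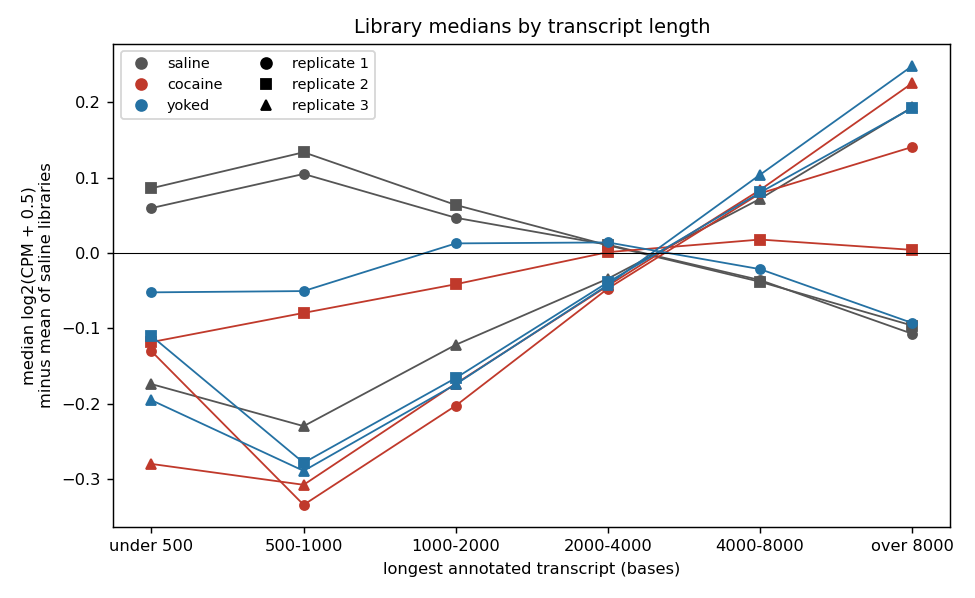
Median over genes of log2(CPM + 0.5), relative to the mean of the 3 saline libraries, in 6 classes of longest annotated transcript length, with 1 line per IP library. Saline replicates 1 and 2 slope down and saline replicate 3 slopes up with most of the pooled libraries, from -0.23 at 500 to 1000 bases to 0.19 above 8000.

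Library composition was compared as well. The share of alignments left out because they matched several places was 44.9% ± 1.81 (SD, n = 3) in saline and 40.2% ± 1.34 (SD, n = 6) in the pool, ranges of 43.2 to 46.8% and 38.3 to 41.6% that did not overlap. An exact two-sided permutation test within replicate numbers gave p = 0.0370, the smallest its 27 arrangements can give, and 0.185 after adjustment over 10 such measures. The share of gene counts on Rn45s, the ribosomal RNA precursor, was 7.46% ± 2.32 (SD, n = 3) in saline and 5.12% ± 0.661 (SD, n = 6) in the pool. The ranges, 5.11 to 9.75% and 4.43 to 6.07%, overlapped. The same permutation test gave p = 0.0741, and 0.185 after adjustment over the 10 measures. Lars2, the mitochondrial leucyl-tRNA synthetase, whose locus is known to collect reads like ribosomal RNA in mouse, was among the 6 lower genes of smallest p, at 4010.0, 5226 and 5138 CPM in saline and 2695 to 4072 CPM in the pool. Its log2 difference was -0.56 ± 0.12 (SE), or -0.35 without saline replicate 2. The part of these shares in the gene results was not tested.

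Of 24 interferon-response genes 21 had lower estimates, 8 of them at an unadjusted edgeR p under 0.05 (4.38% of all genes), with a median of -0.28. Psmb8, a catalytic subunit of the immunoproteasome (chr17:34197721-34201454), was at 19.98, 13.8 and 11.8 CPM in saline, at 9.09, 8.91 and 9.62 CPM in cocaine and at 9.91, 9.49 and 8.84 CPM in yoked. The groups did not overlap and the log2 difference was -0.68 ± 0.16 (SE), with an edgeR adjusted p of 0.740. Its neighbour Psmb9 was at 50.6, 26.2 and 20.8 CPM in saline and 18.6 to 24.0 CPM in the pool, a log2 difference of -0.60 ± 0.19 (SE), which was -0.14 without saline replicate 1. The membrane proteins Ifitm1, Ifitm2 and Ifitm3 differed by -0.38 ± 0.13, -0.33 ± 0.11 and -0.27 ± 0.12 (SE). Ifitm2 was at 96.1, 97.7 and 96.8 CPM in saline and at 69.8 to 74.0 CPM in the 4 pooled libraries numbered 1 and 2, with 81.6 CPM in cocaine replicate 3 and 99.0 CPM in yoked replicate 3. By replicate number the list median was -0.59, -0.28 and 0.10, and with the length trend removed it was -0.14. It was -0.11 without saline replicate 1, -0.18 without saline replicate 2 and -0.51 without saline replicate 3.

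The start of Ifitm3 (chr7:141010715-141010894, minus strand, GRCm38.p6) is printed as an example of a listed member that holds the motif. Capitals are on the 2 matches to the core of the interferon-stimulated response element (TTTC, any 2 bases, TTTC), here on the opposite strand. Psmb8 and Psmb9 were looked up as well and gave no match, which may reflect a missing window.
Ifitm3: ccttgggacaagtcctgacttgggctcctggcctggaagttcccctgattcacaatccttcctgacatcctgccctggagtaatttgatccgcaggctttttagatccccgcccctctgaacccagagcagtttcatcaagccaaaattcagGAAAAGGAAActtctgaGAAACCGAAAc
That string, searched on both strands, was in 10 of 17 interferon-response genes with a window and in 2.99% of all windows, which describes how the list was composed.

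Markers of the meninges were lower in 19 of 20 cases with a median of -0.19, and 5 lower members reached an unadjusted edgeR p under 0.05 (4.38% of all genes). Against the same-numbered saline library the median was -0.38, -0.17 and -0.01 for numbers 1, 2 and 3. It was -0.13 without saline replicate 1 and -0.14 with the length trend removed. Ptgds, the prostaglandin D2 synthase of meningeal cells, stood at 24325, 28265 and 38679 CPM in saline, at 20751, 19240.0 and 28055 CPM in cocaine and at 22852, 19679 and 33915 CPM in yoked, with 746 CPM in the single unpurified library. Libraries numbered 3 were the highest of each group, and saline was the highest library within each number. Its log2 difference was -0.34 ± 0.09 (SE), or -0.18 with the length trend removed. Its share of gene counts was 3.01% ± 0.694 (SD, n = 3) in saline and 2.42% ± 0.589 (SD, n = 6) in the pool, with an exact permutation p of 0.0370 within replicate numbers, the smallest possible (0.185 adjusted over 10 measures), and 0.202 over all 9 libraries. Crabp2, a retinoic acid binding protein of the same cells, was at 313, 221 and 222 CPM in saline and 170.4 to 218 CPM in the pool, with no overlap, a log2 difference of -0.36 ± 0.12 (SE) that was -0.12 with the length trend removed and -0.19 without saline replicate 1. Border macrophage markers were lower in 9 of 10 cases, with a median of -0.31 and 1 lower member of 10 at an unadjusted edgeR p under 0.05 (4.38% of all genes). That median was -0.16 without saline replicate 1. Summed over each list, saline ran from 27933 to 42632 CPM and the pool from 21700 to 37971 CPM for the meningeal markers, and from 73.7 to 159.5 CPM and 56.7 to 147 CPM for the macrophage markers. Ptgds made up most of each meningeal sum.

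Of the other lower genes of smallest p, Emp3, Nnat and 2200002D01Rik stood above the single unpurified library in every IP library. Emp3, a small membrane protein, was at 46.9, 46.1 and 59.9 CPM in saline, at 30.1, 31.5 and 38.5 CPM in cocaine and at 28.1, 34.7 and 48.5 CPM in yoked, with 1.87 CPM in the unpurified library and a log2 difference of -0.55 ± 0.12 (SE), or -0.28 with the length trend removed. Nnat, an imprinted proteolipid, was at 913, 906 and 1024 CPM in saline, at 631, 564 and 733 CPM in cocaine and at 707, 631 and 945 CPM in yoked, a log2 difference of -0.45 ± 0.10 (SE). The gene 2200002D01Rik spanned 2.48 to 4.93 CPM in saline and 1.27 to 1.88 CPM in the pool, a log2 difference of -1.21 ± 0.25 (SE) without overlap.

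**Figure D4:**
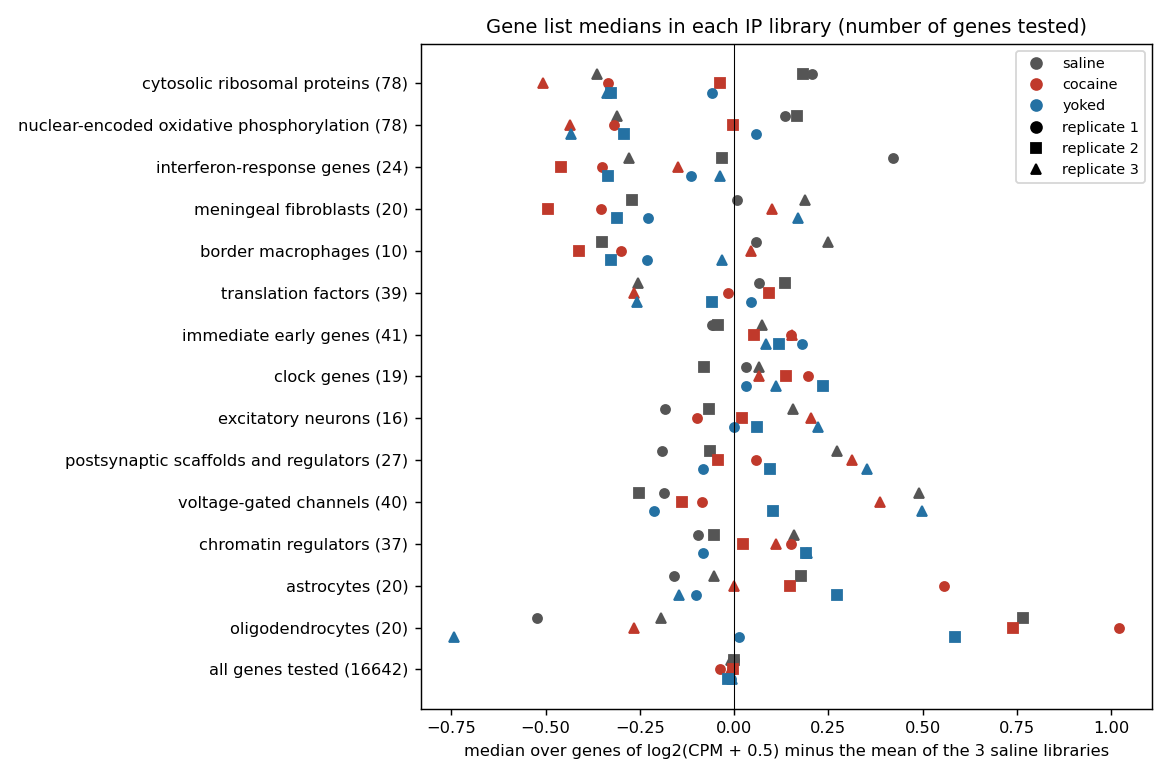
Median over the genes of each list of log2(CPM + 0.5), relative to the mean of the 3 saline libraries, for the 9 IP libraries, with colour for treatment and symbol for replicate number. For ribosomal and oxidative phosphorylation genes saline replicate 3 lies on the left with most of the pool, and for oligodendrocytes the saline libraries alone run from -0.52 to 0.77.

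Lists of synaptic, channel, adhesion and chromatin genes had more higher than lower estimates, with small medians. Postsynaptic scaffolds and regulators were higher in 23 of 27 cases with a median of 0.16, and 4 higher members reached an unadjusted edgeR p under 0.05 (2.12% of all genes): Camk2a, Dlg2, Shank2 and Dlgap1. Dlg2 (PSD-93) was at 425, 462 and 497 CPM in saline and 503 to 573 CPM in the pool without overlap, a log2 difference of 0.24 ± 0.10 (SE), or 0.14 with the length trend removed. Synaptic vesicle genes were higher in 26 of 31 cases (median 0.09), voltage-gated channels in 31 of 40 (0.11), adhesion and axon guidance genes in 28 of 33 (0.12) and chromatin regulators in 32 of 37 (0.12). Of these 4 lists the chromatin regulators alone had members at an unadjusted edgeR p under 0.05, Tet3 and Chd3. With the length trend removed the postsynaptic median was 0.086, with 1 higher member at that p, and the other 4 were 0.05, -0.00, 0.02 and 0.03. Without saline replicate 1 the postsynaptic median was 0.093. Among cell type markers, layer 5 had a median of 0.11 and excitatory neurons of 0.13, each with 11 higher and 5 lower. In each of these lists 1 higher and 1 lower member reached an unadjusted edgeR p under 0.05 (2.12% and 4.38% of all genes). In layer 5 these were Bcl6 (0.42 ± 0.15, SE) and Rbp4 (-0.56 ± 0.15, SE). Among excitatory neuron markers they were Camk2a (0.31 ± 0.11, SE) and Slc17a8 (-0.73 ± 0.26, SE). Interneurons had a median of -0.05 (10 higher, 14 lower) and striatal projection neurons one of -0.03 (8 higher, 10 lower).

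S100a10 itself, whose regulatory sequence drives the tag, was at 252, 285 and 174 CPM in saline, at 199.7, 204 and 168 CPM in cocaine and at 183, 195 and 232 CPM in yoked. The groups overlapped, and the log2 difference of -0.25 ± 0.14 (SE, edgeR p 0.0900) was 0.05 with the length trend removed. Anxa2, the annexin that p11 binds, differed by -0.12 ± 0.11 (SE). Over 22 tested genes of dopamine and serotonin signalling the median was -0.07. The dopamine receptor genes Drd5 and Drd2 were the 2 of these lower at an unadjusted edgeR p under 0.05 (4.38% of all genes). Their edgeR adjusted p was 0.749 and 0.762. Drd5 was at 1.30, 1.01 and 1.46 CPM in saline and 0.235 to 0.810 CPM in the pool, on only 9 to 64 counts per library. Drd2 was at 2.28, 6.22 and 5.49 CPM in saline and 1.30 to 4.29 CPM in the pool, so the groups overlapped.

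Oligodendrocyte, precursor and astrocyte medians depended on the libraries numbered 1 and differed between cocaine and yoked. Oligodendrocyte genes were higher in 16 of 20 cases with a median of 0.18 for the pool. Taken separately, that median was 0.54 for cocaine and -0.15 for yoked. By number the medians were 1.05, -0.08 and -0.19, and the median was -0.09 without the libraries numbered 1. Oligodendrocyte precursor genes had a median of 0.41 for the pool, 0.74 for cocaine and 0.04 for yoked, and 1.02, 0.08 and 0.15 by number. Ptprz1, a receptor phosphatase of precursors and astrocytes, was at 6.70, 13.4 and 12.1 CPM in saline, at 28.2, 16.5 and 15.5 CPM in cocaine and at 10.6, 16.8 and 12.5 CPM in yoked, a log2 difference of 0.63 ± 0.24 (SE) that was 0.28 without saline replicate 1. Astrocyte genes were higher in 16 of 20 cases, with a median of 0.12 for the pool, 0.32 for cocaine and -0.04 for yoked, and -0.03 without the libraries numbered 1.

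The contribution of each treatment to the pool is given by its own difference from saline in the same fit. These 2 differences share the saline libraries, so their likeness is partly built in. Egr2 differed by 0.71 ± 0.18 in cocaine and 0.88 ± 0.18 in yoked, Egr1 by 0.49 ± 0.12 and 0.41 ± 0.12, and Egr3 by 0.50 ± 0.12 and 0.39 ± 0.12 (log2, SE). Rplp1 differed by -0.58 ± 0.14 and -0.64 ± 0.14, and Psmb8 by -0.69 ± 0.18 and -0.67 ± 0.18. The widest gap among the 13 genes plotted was in Nnat, -0.57 ± 0.12 in cocaine and -0.34 ± 0.12 in yoked.

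**Figure D5:**
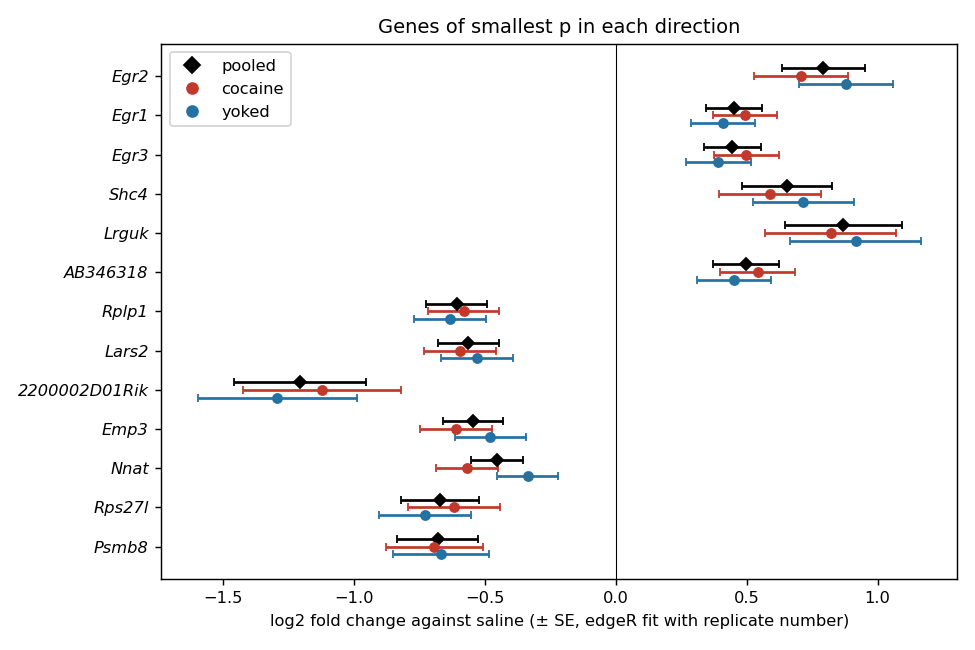
Log2 difference from saline (± SE, edgeR fit with replicate number) of the 6 genes of smallest p in each direction and Psmb8, for the pool (diamonds), cocaine (red) and yoked (blue), which share the 3 saline libraries. Cocaine and yoked lie on the same side of 0 for all 13 genes, and none of the 13 passed the adjusted threshold.

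Cocaine and yoked themselves were compared directly, a contrast that does not use the saline libraries for its means. Of 16642 genes 0 were called by edgeR (0%) and 0 by DESeq2, with 439 (2.64%) and 481 at an unadjusted p under 0.05. Against saline, edgeR called 0 genes for cocaine alone (1154 at an unadjusted p under 0.05, 6.93%) and 0 for yoked alone (690, 4.15%), and DESeq2 called 0 and 2. Egr2 differed by -0.17 ± 0.18 (SE) between cocaine and yoked, Egr1 by 0.08 ± 0.12 and Rplp1 by 0.05 ± 0.14. These intervals include 0 and do not show that the treatments act alike.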

How the data were processed

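Ribosome-bound RNA from 9 IP libraries, and 1 unpurified library used for levels only, was sequenced. Per the submitters' processing notes the authors aligned reads with STAR 2.0.0e to mm10 and counted them with HTSeq (version, strand setting and annotation: not given in the sources used here). The deposited values are raw counts per gene. The 6 entries that name no gene entered neither library sizes nor tests and gave only shares of alignments (multiply aligned, 38.3 to 46.8% in the IP libraries).

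Counts were filtered with filterByExpr (minimum count 10), scaled by TMM and tested with edgeR 4.0.16 (R 4.3.3) in 1 fit of the 9 IP libraries: 3 groups plus replicate number, which the definition of the comparison sets as a block. The contrast was the mean of cocaine and yoked minus saline, called at a Benjamini-Hochberg adjusted p under 0.05. CPM values are TMM-scaled in IP libraries and unscaled in the unpurified one. Levels of different genes are not comparable, since CPM is not divided by length. DESeq2 1.42.0 was the second tool. Other settings were no block, other scalings and filters, a length trend removed by library (15091 genes with an annotated length, GENCODE vM21), and each library or number left out. The fit was tested on simulated data with changes larger than most of those described here. That test does not show whether smaller changes would be called.

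Genes chosen for naming were the 6 of smallest p in each direction with a mean log2 CPM of 1 or more, since none was called. To these were added the 2 of smallest p in each of 37 gene lists and a short fixed list. The fixed list held activity genes and Anxa2, Malat1, Ptgds, Rpl10a and S100a10. Not every gene so chosen is described. Others were named after their values were seen, among them the list members at an unadjusted p under 0.05. The members and the lists were chosen with earlier results of these data known. Promoter sequences come from RefSeq (GRCm38.p6), and 31 of 41 immediate early genes, 17 of 24 interferon-response genes and 58 of 78 ribosomal protein genes had one. The CArG box was added to the motifs after the data were seen. Counts alone give narrow sampling error at these depths, so the spread between libraries limits the precision.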

Additional observations from a re-analysis of the deposited data

Results flagged for a closer look

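Among 141 values checked in the pool of 6, 4 had 1 library far from the other 5 by Dixon's criterion, which chance flags in about 1 in 20 groups. Junb was at 7.28 CPM in yoked replicate 3 and at 12.03 to 15.3 CPM in the other pooled libraries. Psmb3, a proteasome subunit, was at 40.1 CPM in cocaine replicate 2 and at 29.5 to 32.0 CPM in the rest. Yoked replicate 1 was the low library in both flagged lists, with a median of -0.18 for the markers of layers 2 to 4 (0.17 to 0.27 in the others) and of -0.65 for microglia (0.03 to 0.37 in the others). For heat shock and chaperone genes every cocaine library lay above, and every yoked library below, its same-numbered saline library, with a list median of 0.17 for cocaine minus yoked. Some margins were very small: cocaine replicate 3 was at -0.1275 and saline replicate 3 at -0.1312, and yoked replicate 2 at 0.0090 and saline replicate 2 at 0.0261. The difference between cocaine and yoked in this list was not tested.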

How the results depend on the processing

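The replicate numbers were not shown to pair the libraries: the deviations of same-numbered libraries correlated at -0.08 to 0.47, over 0.1 in 7 of 9 pairs, and 7 of 9 libraries correlated best with their own number. Pairs of different numbers ran from -0.50 to 0.42. Same-numbered pairs ran from -0.08 to 0.20 for number 1, from 0.10 to 0.36 for number 2 and from 0.43 to 0.47 for number 3. Without the replicate block edgeR called 0 genes, with 589 at an unadjusted p under 0.05 against 1081. For the pool against saline, DESeq2 called 3 genes and edgeR without the count filter 36 (5 higher, 31 lower), and leaving out 1 library or number gave 0 to 7: 1 gene without yoked replicate 1 (Defb1), 1 without the libraries numbered 3 (Cxcl10) and 7 without those numbered 1, among them Defb1, Rn45s, Lars2 and Npy. Without the filter cocaine against yoked had 33 calls, cocaine against saline 29 and yoked against saline 9; DESeq2 had 2 for yoked against saline. Leaving out libraries gave 0 to 6, 0 to 6 and 0 to 15 for those 3 comparisons. The cause of these changes was not tested. Other scalings (RLE, upper quartile), the stricter filter and 1 pooled group of 6 gave 0 calls for the pool.

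With libraries left out, the immediate early gene median ran from 0.0285 (without the libraries numbered 1) to 0.15. Removing the length trend moved the ribosomal median to -0.091, the oxidative phosphorylation median to -0.0397, Junb to 0.0166 and S100a10 to 0.046. With libraries left out, Dusp1 ran from -0.49 to 0.39, above 0 without saline, cocaine or yoked replicate 3 (0.39, 0.0026 and 0.054) and without all libraries numbered 3 (0.39). Junb ran from -0.41 to 0.22, above 0 without saline or yoked replicate 3 (0.22 and 0.086) and the number 3 (0.21). Npas4 ran from -0.34 to 0.15, above 0 without saline replicate 3 (0.15) or the number 3 (0.14). Fos ran from -0.0108 (without the number 1) to 0.47, and was -0.0027 without saline replicate 1. Egr2, Egr1, Egr3, Rplp1 and Psmb8 kept their direction in all 20 settings run for each. The exact permutation test over all 9 libraries gave p = 0.0119 for the multiply aligned share and 0.202 for the Ptgds share, against 0.0370 for each within replicate numbers.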

Other observations

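Genes of cholinergic neurons were looked at after their values were seen, so no test of them as a group was made. Slc18a3, Slc5a7, Slc10a4 and Ngfr were called by edgeR without the count filter and not in the filtered test. Summed over 8 such genes (Chat, Slc18a3, Slc5a7, Slc10a4, Ngfr, Lhx8, Ache and Isl1), the level was 57.9, 82.2 and 44.0 CPM in saline replicates 1 to 3, 40.8, 35.1 and 22.1 CPM in cocaine, 12.8, 37.4 and 51.6 CPM in yoked and 19.0 CPM in the unpurified library. Yoked replicate 3 lay inside the saline range and the other 5 pooled libraries below it. Slc18a3, the vesicular acetylcholine transporter, ran from 5.60 to 6.06 CPM in saline and from 0.209 to 4.54 CPM in the pool, and Chat, the acetylcholine-synthesising enzyme, from 3.11 to 6.08 CPM and from 0.734 to 4.06 CPM.

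Oxt, the oxytocin precursor and one of the 3 genes that DESeq2 called, was at 1.16, 3.63 and 0.167 CPM in saline, at 0.248, 1.37 and 0.0204 CPM in cocaine and at 0.0522, 0.482 and 0.0452 CPM in yoked. Saline was highest within each number, and the groups overlapped. Gal, another hypothalamic peptide precursor, ran from 0.239 to 3.04 CPM in saline and from 0.184 to 0.521 CPM in the pool. Avp, also looked at after values were seen, ran from 0.0478 to 0.96 CPM in saline and from 0 to 0.541 CPM in the pool. Its log2 difference was -0.93 ± 0.69 (SE, edgeR p 0.19). Oxt had only 7 counts in saline replicate 3 and 1 in cocaine replicate 3, and Gal had 10 and 9. These estimates therefore rest on few counts in some libraries.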
